A study of Anopheles merus and Anopheles coluzzii with 36 samples.

Results

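The response of Anopheles coluzzii larvae to brackish water was measured by RNA sequencing in 6 of the 36 libraries of the series, 3 from larvae held at 50% of the salinity of seawater and 3 from larvae held at 0%. All larvae were reared in fresh water and, at 18 h after hatching, exposed to the test water for 6 h, the larvae at 0% included. Each library was made from poly(A) RNA of 1 pool of 35 to 50 whole larvae. The 50% libraries carry the letters A, B and C, and the 0% libraries the letters A, B and D. The remaining libraries are An. coluzzii at 10, 20, 30 and 40% and the related An. merus at the same 6 salinities. No strain is named, and the labels do not say whether pools came from separate cultures, so the tests cover the spread between pools.

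An. coluzzii, a malaria vector of the An. gambiae complex, is the stenohaline species of the pair, with larvae of fresh water, and An. merus tolerates a wide range of salt. A larva in fresh water takes up water and loses ions through its surface, and its Malpighian tubules and rectum make a dilute urine while recovering ions, driven by proton and sodium pumps. In salty water both gradients turn round, and acute salt or osmotic stress in insects is commonly met with molecular chaperones and with changes in ion transport. The deposited table names genes by identifier alone, and none of its 10905 identifiers matched the reference table at hand (16199 An. merus genes). The genes are therefore given by identifier, with no name or role, and which of them belong to these pathways was not examined. For the same reason the labelled whole body could not be checked against tissue markers.

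The libraries held 15369828 to 18635855 reads at 50% and 18040264 to 19435223 at 0%, counted over 10905 genes. Levels are in CPM, counts per 1e6 reads with the authors' scaling. Library D at 0% stood apart from the other 0% libraries. Its root mean square difference over all genes, in log2(CPM + 0.5), was 0.586 from A and 0.480 from B, against 0.334 between A and B and 0.290 to 0.377 among the 50% libraries. In D, 123 genes (1.13%) stood at least 4-fold above both other 0% libraries, against 2 in A and 4 in B. Between a 50% and a 0% library the difference was 0.885 to 1.15, the 3 highest values being those with D. Counts of strong changes and the strongest falls are therefore given also without it. For single genes, the difference from An. merus is given only with D included.

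At 50% the larvae differed from those at 0% in most of the genes measured. Of 10905 genes, 7417 (68%) passed the test, 3454 higher (31.7%) and 3963 lower (36.3%), by limma on log2(CPM + 0.5) at a Benjamini-Hochberg adjusted p under 0.05. Most changes were small. The median absolute log2 fold change over all genes was 0.55, and 1 gene in 10 changed by more than 1.43. The change was at least 2-fold and past the test for 2429 genes (22.3%), 1076 higher (9.87%) and 1353 lower (12.4%). In 3448 genes (31.6%) all libraries at 50% lay above all at 0%, and in 3973 (36.4%) all lay below.

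With all 6 libraries, strong falls were more numerous than strong rises. Without library D the excess remained at 4-fold, was small at 8-fold and turned round at 16-fold. At least 4-fold, 116 genes were higher and 271 lower, and without D 117 were higher and 220 lower. At least 8-fold, 39 genes were higher (0.358%) and 65 lower (0.596%), and at least 16-fold 13 were higher and 28 lower. Without D, 42 genes were higher and 46 lower by at least 8-fold, and 13 higher and 9 lower by at least 16-fold. The direction of the smaller changes depends on scaling. Abundant genes took more of the reads at 50%, where the 100 most abundant held 45.3, 42.6 and 42.4% in A, B and C at 50%, against 34.8, 35.0 and 35.1% in A, B and D at 0%. With library totals in place of the authors' scaling, which shifted the log2 fold changes of single genes by a median of -0.29, 2189 genes were higher and 5456 lower, and 584 and 2193 by at least 2-fold. With quantile normalization 3667 were higher and 3556 lower, and 1318 and 1186 by at least 2-fold. Directions here are those of the authors' scaling.

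**Figure D1:**
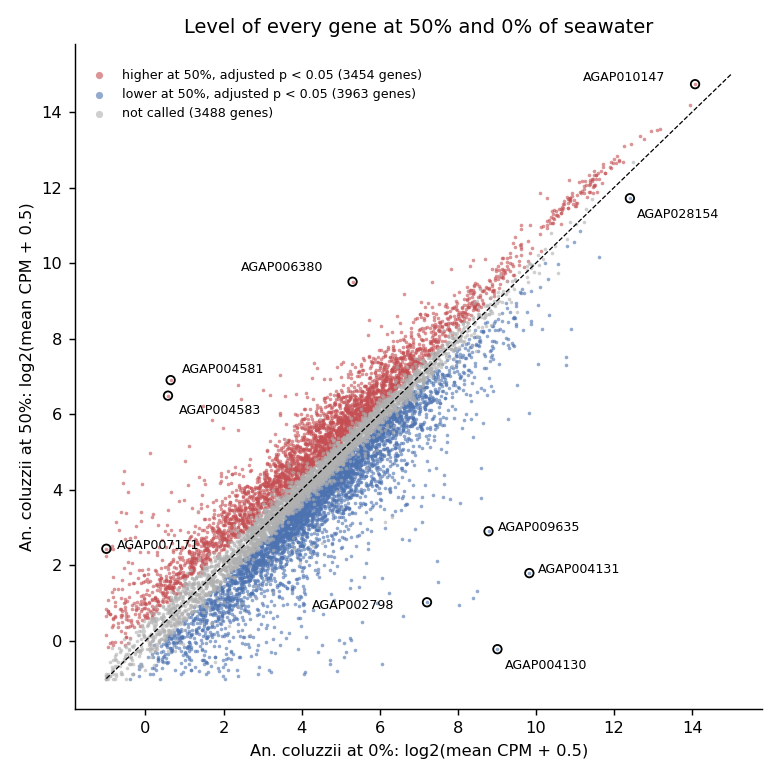
Each point is 1 gene, with its mean level in the 3 An. coluzzii libraries at 50% on the vertical axis and at 0% on the horizontal axis, both as log2(mean CPM + 0.5). Red and blue points passed the limma test (3454 higher, 3963 lower), the dashed line marks equal levels, and circles mark named genes. The most abundant genes lie mostly above the line.

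**Figure D2:**
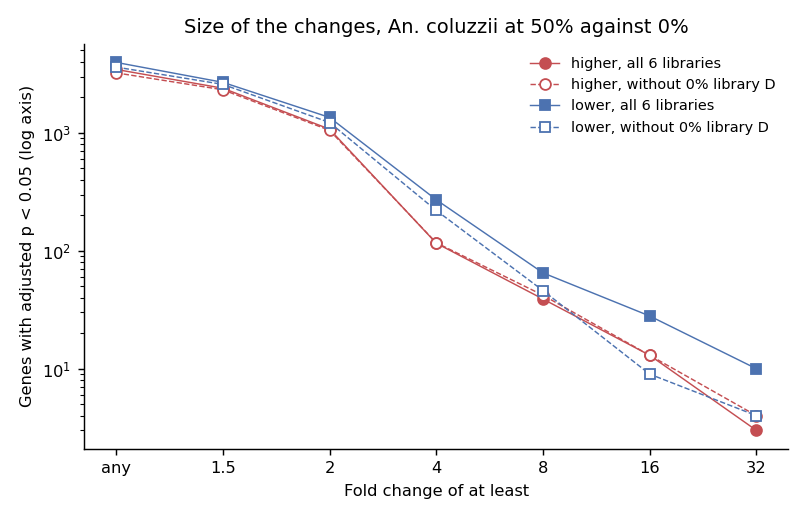
Number of genes past the limma test (log axis) that changed by at least the fold on the horizontal axis at 50% against 0%, with all 6 libraries (filled) and without library D at 0% (open). Leaving D out lowers the falls of at least 16-fold to 9 genes, against 28 with D, and leaves 13 rises.

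The genes that did not pass were in large part bounded. Among the 3488 genes without a call, 2345 (67.2%) had a 95% interval that lay within a 1.5-fold change either way, and 3289 within a 2-fold change. The calls varied with single libraries mainly for small changes. Of the 7417 calls, 5958 (80.3%) had the same direction and passed in each of 6 fits that left out 1 of the 6 libraries. Of the 2429 calls of at least 2-fold the number was 2340 (96.3%), and edgeR and DESeq2 both made 2425 of them in the same direction.

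The strongest rises, among genes with a mean of at least 5 CPM over the 2 groups, were those of AGAP004581 and AGAP004583. AGAP004581 measured 106, 160 and 90.7 CPM in libraries A, B and C at 50%, against 0.297, 0.801 and 2.10 CPM in A, B and D at 0%. The log2 fold change was 6.38 ± 0.48 (SE), with a limma adjusted p of 4.9e-12. AGAP004583 measured 77.8, 120 and 70.1 CPM at 50%, against 0.494, 0.848 and 1.64 CPM at 0%, a change of 5.94 ± 0.49 (log2, SE) at an adjusted p of 2.5e-11 by limma. In both genes library B was the highest at 50% and D at 0%, and the groups lay far apart. The order of the libraries was the same in both. No test was made for reads that map to either gene, so the pair is uncertain as separate measurements. Most of the rise lay between 30 and 40%. AGAP004581 averaged 8.29 ± 0.205 CPM at 30%, 102 ± 5.37 at 40% and 119 ± 36.3 at 50% (SD, n = 3). From 40 to 50% its log2 change was 0.18 ± 0.48 (SE; limma adjusted p = 0.78), with an interval of -0.80 to 1.16.

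The 39 genes risen at least 8-fold were mostly rare at 0%. Their median per library was 13.4 to 18.6 CPM at 50%, against 0.395 to 0.518 CPM at 0%, the groups being fixed apart by the choice of the genes. The libraries at the salinities in between did not enter the fold change, but their spread entered the variance of the test. There the median was 0.586 to 0.722 CPM at 10%, 0.740 to 1.41 at 20%, 2.75 to 4.02 at 30% and 14.9 to 22.4 at 40%. The level thus stood at 40% where it did at 50%, within the spread of the libraries. In An. merus the same genes had medians of 1.71 to 3.18 CPM at 50%, against 0.436 to 0.580 CPM at 0%, with no overlap.

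AGAP006380 had the highest level at 50% among the 39 genes risen at least 8-fold, a class added after the values were seen. It measured 741, 760 and 679 CPM at 50%, against 36.7, 30.8 and 49.5 CPM at 0%, a change of 4.23 ± 0.42 (log2, SE) at an adjusted p of 1.2e-09 by limma. It too was near its 0% level up to 30% (55.5 ± 17.0 CPM) and high at 40% (585 ± 121 CPM; SD, n = 3). AGAP007171 had no read in any An. coluzzii library at 0, 10 or 20%. At 50% it measured 4.96, 5.01 and 4.77 CPM, from 221 reads in all, close together. Set against 3 reads over the 0% libraries, the level that a count of 0 allows, it was at least 99.8-fold higher at 50%, and limma called it (adjusted p = 1.3e-15). Counting error alone is covered by the limit of 3 reads. In all, 11 genes had no read at 0%, and 5 of these rose, against 31.7% of all genes. Such genes could not fall, and the fewest reads among them at 50% were 0.

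The strongest falls by the same rule were those of AGAP004130 and AGAP004131, and in both library D was the highest at 0%. AGAP004130 measured 0.782, 0 and 0.289 CPM at 50%, against 95.2, 154 and 1300.3 CPM in A, B and D at 0%. The log2 fold change was -8.39 ± 1.45 (SE), with a limma adjusted p of 1.2e-05, and -7.25 without D (limma adjusted p = 0.00026). AGAP004131 measured 5.80, 0.698 and 2.39 CPM at 50%, against 128, 244 and 2359 CPM at 0%, with a change of -7.23 ± 1.27 (log2, SE) at an adjusted p of 1.5e-05 by limma, and of -5.99 without D (limma adjusted p = 0.00036). The groups did not overlap in either gene, and D was far above the other 0% libraries in both. Reads mapping to either gene were not examined here either.

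AGAP002798 fell most among the genes of at least 5 CPM in which D was not the highest 0% library, a class added after the values were seen. It measured 2.41, 0.507 and 1.66 CPM at 50%, against 218, 154 and 71.0 CPM at 0%, a change of -6.18 ± 0.34 (log2, SE) at an adjusted p of 1.0e-14 by limma. Its fall came at lower salinity than the rises above, with 46.8 ± 13.3 CPM at 20% and 4.86 ± 0.849 CPM at 30% (SD, n = 3). AGAP003472 had no read at 50% and 0.692, 1.32 and 8.75 CPM at 0%, at least 53.5-fold lower at 50% when set against 3 reads over the 50% libraries, and at least 15-fold without D. Of its 0% level most came from D, and its call (limma adjusted p = 0.010) was lost without D (adjusted p = 0.11). In all, 10 genes had no read at 50%, and 3 of these fell, against 36.3% of all genes. Such genes could not rise, and at least 1 had no read at 0% either.

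Among the 65 genes fallen at least 8-fold, 36 (55.4%) stood in D at least 4-fold above both A and B. Their median level was 1.17, 0.476 and 0.976 CPM at 50%, against 9.32, 15.9 and 138 CPM in A, B and D at 0%. Without D, 32 of the 36 still passed as lower, and 18 were lower by at least 8-fold. The libraries at the salinities in between did not enter the fold changes or the 4-fold limit on D, but their spread entered the variance of the test. There too these genes differed between pools. Their median was 4.87 and 5.93 CPM in A and B against 41.9 CPM in C at 10%, 5.90, 34.5 and 19.4 CPM in A, B and C at 20%, and 8.63, 5.75 and 46.1 CPM at 30%. At 40% all libraries lay between 4.35 and 9.35 CPM. The other 29 genes differed less between pools, with 4.83 to 6.29 CPM at 50% and 60.2 to 90.9 CPM at 0% as medians per library. At 0% the split by D favoured this. Their medians were 74.8 to 91.1 CPM at 10% and 70.8 to 88.3 CPM at 20%, salinities that the split did not use. They were 42.2 to 51.0 CPM at 30% and 7.43 to 11.9 CPM at 40%. Single genes among them differed more, such as AGAP009635 with 112, 435 and 776 CPM in A, B and D at 0%. All 29 still passed without D, which their choice favoured in the same way.

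**Figure D3:**
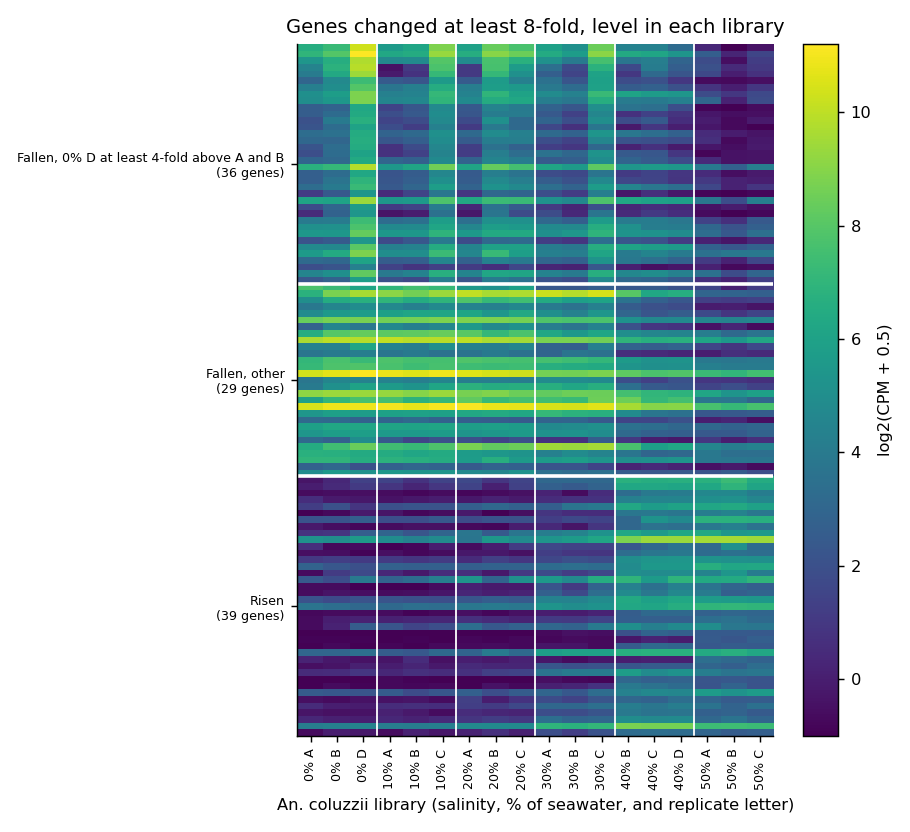
Level, as log2(CPM + 0.5), of the 104 genes changed at least 8-fold (rows) in the 18 An. coluzzii libraries (columns, by salinity and replicate letter). The upper block holds the 36 fallen genes in which library D at 0% stands at least 4-fold above A and B, and libraries of 1 salinity differ there also at 10, 20 and 30%. The 29 other fallen genes and the 39 risen genes mostly keep 1 shade within a salinity.

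Abundant genes rose more often than rare ones. Of 282 genes with a mean of at least 500 CPM over the 2 groups, 198 were higher (70.2%) and 36 lower (12.8%), with a median log2 fold change of 0.60. Of 5895 genes between 5 and 50 CPM, 1625 were higher (27.6%) and 2372 lower (40.2%), with a median of -0.14. With library totals as the scaling the abundant genes still rose more often (164 higher, 62 lower, median 0.29), and between 50 and 500 CPM the majority turned from higher (1091 higher, 770 lower) to lower (651 higher, 1159 lower). The 100 genes with the largest gains held 55.1% of all CPM gained, and the 100 with the largest losses 34.7% of all CPM lost. Genes not called took 16.2 to 16.8% of the reads at 50% and 19.9 to 20.9% at 0%.

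AGAP010147 gained most in CPM, with 28899, 26126 and 26843 CPM at 50%, against 14568, 17496 and 19692 CPM at 0%. The log2 fold change was 0.67 ± 0.13 (SE), with a limma adjusted p of 7.7e-05, and 0.12 under quantile normalization, which forces the tops of all libraries together (limma adjusted p = 0.13). AGAP028154 lost most, with 3322, 3275 and 3493 CPM at 50% against 5276, 5535 and 5464 CPM at 0%, and a change of -0.69 ± 0.09 (log2, SE) at an adjusted p of 3.5e-07 by limma. It changed by -1.33 under quantile normalization and by -0.99 with library totals. The groups were separate in both genes. The 0% libraries of AGAP010147 lay further apart, D being the highest, than those of AGAP028154. The level of AGAP028154 was lower at each step above 20%, with 4677 ± 66.3 CPM at 30% and 3957 ± 58.6 CPM at 40% (SD, n = 3).

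The genes called at least 2-fold were followed through the salinities in between. Libraries there did not enter the fold change, but their spread entered the variance of the test. The median log2(CPM + 0.5) of the 1076 risen genes was 3.50 ± 0.06, 3.52 ± 0.04, 3.65 ± 0.07, 3.97 ± 0.13, 4.51 ± 0.12 and 4.93 ± 0.09 at 0, 10, 20, 30, 40 and 50% (SD over 3 libraries). That of the 1353 fallen genes was 4.31 ± 0.22, 4.28 ± 0.10, 4.23 ± 0.02, 3.88 ± 0.13, 3.17 ± 0.11 and 2.67 ± 0.04. The risen list stood slightly above its 0% level at 20%, the fallen list was within its spread until then, and both moved most from 30% on. The median over all 10905 genes stayed between 4.23 and 4.34. Single genes went other ways. The highest mean was at 40% in 269 of the risen genes, and the lowest at 40% in 288 of the fallen ones. In 238 fallen genes the highest mean was at 30%. AGAP009635 was among those that fell after a peak, with 888 ± 130 CPM at 20%, 1163 ± 219 at 30%, 144 ± 101 at 40% and 6.96 ± 0.587 at 50% (SD, n = 3). At 0% it differed widely between pools, with 112, 435 and 776 CPM in A, B and D.

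**Figure D4:**
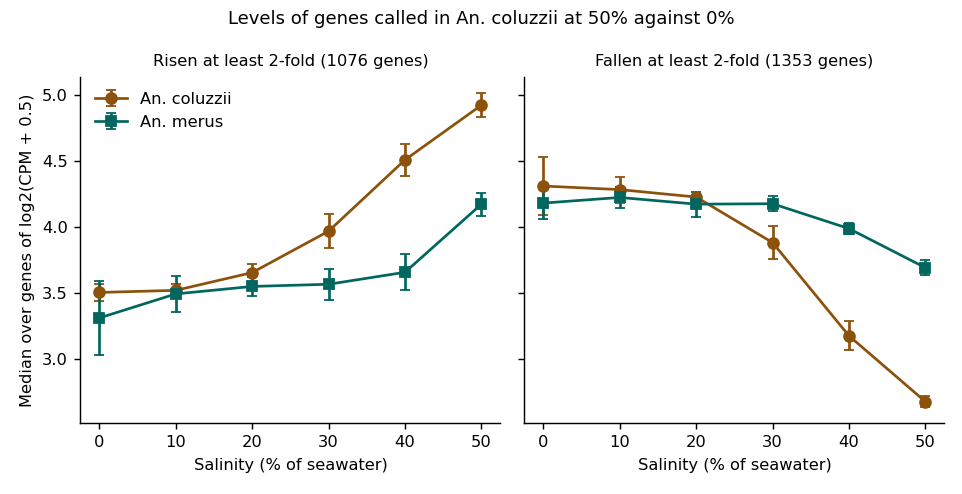
Median level over genes, as log2(CPM + 0.5), of the genes risen (left, 1076) and fallen (right, 1353) at least 2-fold in An. coluzzii at 50% against 0%, by salinity. Points are means and bars SDs over 3 libraries of An. coluzzii (brown circles) and An. merus (green squares). The An. coluzzii medians move most from 30% on, and the An. merus medians mainly at 50%.

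The step from 40 to 50% was tested by itself. It separated 4723 genes (43.3%), 2351 higher (21.6%) and 2372 lower (21.8%) at 50%. Changes of at least 2-fold numbered 707 (6.48%), 157 higher (1.44%) and 550 lower (5.04%). Among genes with a mean of at least 5 CPM over these 2 groups and no overlap, AGAP004131 fell most over this step, to 5.80, 0.698 and 2.39 CPM at 50%, against 84.9, 71.7 and 40.6 CPM in B, C and D at 40% (log2 change -4.50 with SE 1.27, limma adjusted p = 0.0053). AGAP008448 rose most under the same limit, with 18.1, 37.9 and 18.1 CPM at 50% against 3.17, 4.19 and 4.26 CPM at 40% (log2 change 2.45 with SE 0.82, limma adjusted p = 0.016). Its call was lost without library B at 50% (adjusted p = 0.072) or B at 40% (adjusted p = 0.055). Against 0%, where it measured 63.5, 31.9 and 2.35 CPM in A, B and D, it was not called at 50% (limma adjusted p = 0.68), and its sign there turned without D.

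An. merus was measured against its own 0% libraries. It had 7594 genes (69.6%) called at 50%, 3482 higher (31.9%) and 4112 lower (37.7%). By at least 2-fold it had 2615 (24%), 1189 higher (10.9%) and 1426 lower (13.1%). Of the 1076 genes risen at least 2-fold in An. coluzzii, 815 (75.7%) also rose in An. merus, where they made up 23.4% of its risen genes, and 47 (4.37%) fell. Of the 1353 fallen genes, 685 (50.6%) also fell in An. merus, or 16.7% of its fallen genes, and 212 (15.7%) rose. With D left out the share of fallen genes that also fell was 56.0%. The shares moved with other choices too, to between 59.7 and 80.4% for the risen and 45.8 and 58.5% for the fallen genes. Among changes of at least 8-fold, 27 of 39 risen genes (69.2%) rose in An. merus and none fell. Of the 65 fallen genes, 18 (27.7%) fell in An. merus, a lower share than the 37.7% of all genes, and 6 (9.23%) rose. Their median log2 fold change in An. merus was nonetheless lower than that of all genes, at -0.68 against -0.06. The 36 of these 65 that stood high in D differed between An. merus pools too, with medians of 5.22, 2.27 and 15.2 CPM in A, B and C at 0%. The median log2 fold change of the 2-fold lists was 0.82 (risen) and -0.47 (fallen) in An. merus, against 1.31 and -1.43 in An. coluzzii, whose values chose the genes.

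The difference in response itself, An. coluzzii minus An. merus, passed the test for 5992 genes (54.9%), with the response of An. coluzzii higher in 3200 (29.3%) and lower in 2792 (25.6%). With library totals the numbers were 2331 and 3243. A difference of at least 2-fold was found for 2580 genes (23.7%), 1130 higher (10.4%) and 1450 lower (13.3%). Under the rule for named genes AGAP004980 had the highest difference, 5.54 ± 0.52 in log2 units (SE) at an adjusted p of 1.3e-09 by limma. In An. coluzzii it measured 54.5, 50.4 and 54.2 CPM at 50%, against 19.7, 12.5 and 11.8 CPM at 0%, after a low of 0.747 ± 0.265 CPM at 30% (SD, n = 3). In An. merus it averaged 2.02 ± 1.75 CPM at 50%, against 29.0 ± 11.4 CPM at 0% (SD, n = 3). AGAP009635 had the lowest difference, -7.97 ± 0.67 (SE; limma adjusted p = 1.5e-10). In An. coluzzii its mean was 6.96 ± 0.587 CPM at 50%, against 441 ± 332 CPM at 0%, and in An. merus 775 ± 57.1 CPM at 50%, against 147 ± 55.3 CPM at 0% (SD, n = 3). The difference for AGAP006380 was 4.25 ± 0.60 (SE; limma adjusted p = 1.0e-06), and its level in An. merus was 70.7 ± 5.79 CPM at 50%, against 87.8 ± 72.2 CPM at 0% (SD, n = 3). For AGAP004581 the difference did not pass (1.12 ± 0.68 SE, interval -0.27 to 2.51, limma adjusted p = 0.16), nor for AGAP010147 (0.00 ± 0.19 SE, interval -0.39 to 0.39, limma adjusted p = 0.996).

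**Figure D5:**
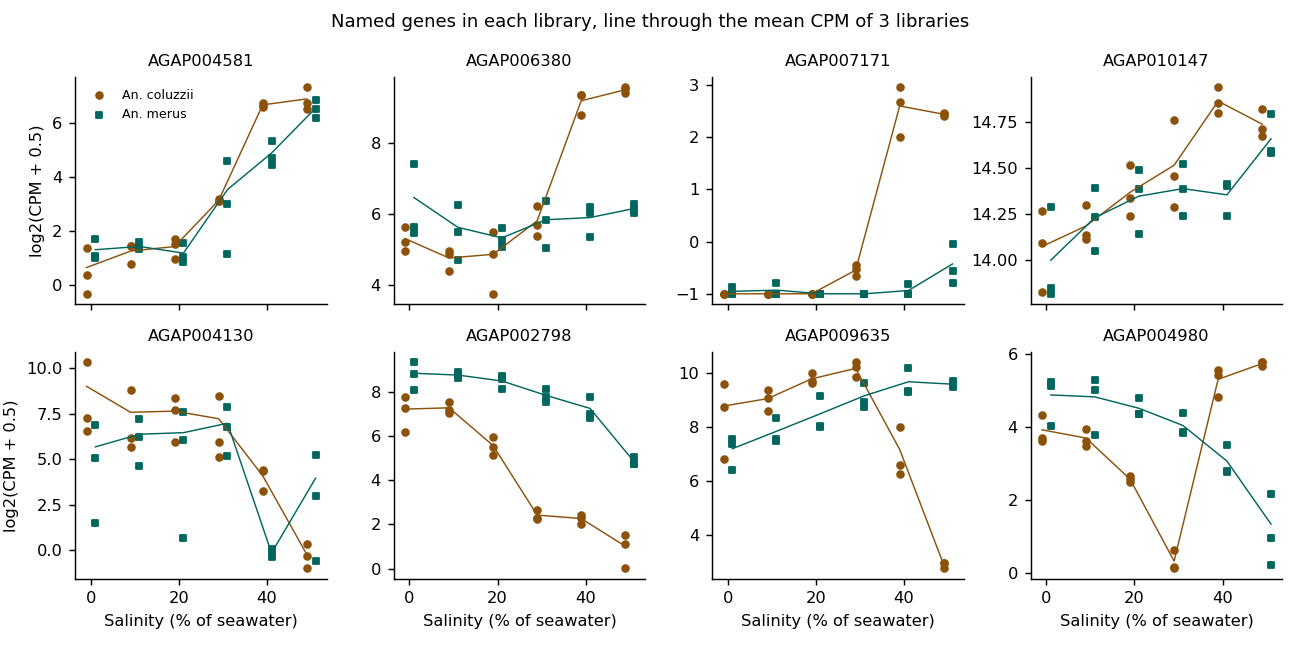
Level, as log2(CPM + 0.5), of 8 named genes in each library by salinity, An. coluzzii (brown circles) and An. merus (green squares), with lines through the mean CPM of 3 libraries; each panel has its own vertical axis, and points are offset by species. AGAP006380 and AGAP007171 are higher in An. coluzzii than in An. merus at 40 and 50%, and AGAP009635 and AGAP004980 go opposite ways in the species at 50%.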

How the data were processed

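Poly(A) RNA from pools of whole larvae was sequenced with a TruSeq kit, per the labels. Trimmomatic, Bowtie2, TopHat2, HTSeq and edgeR are named in the submitters' processing notes; versions, build and annotation are unknown here. The deposited signal is, per the file's name, CPM with TMM scaling by the authors (trimmed mean of M values), filtered, with ribosomal RNA removed. TMM takes most genes as unchanged, so a change is relative to most genes. In every library 100% of the values were whole multiples, within 0.001, of the worth of 1 read, which gave back the reads. The labels list 5 lane parts for library C at 50%, whose column bears the name of 1 part, and it is unknown here whether all were summed. It had the fewest reads of the 6.

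limma 3.58.1 (R 4.3.3) tested log2(CPM + 0.5) of all genes in 1 model with 12 group means over all 36 libraries and empirical Bayes with a mean trend. P-values were two-sided and Benjamini-Hochberg adjusted over 10905 genes. The added 0.5 CPM understates changes of low genes, and a fitted fold change of a gene with no reads in 1 group depends on it. The spread was pooled over groups. Its median per gene was 0.160 at 50% and 0.171 at 0% (SD of log2 values). Over all groups it ran from 0.101 in An. coluzzii at 10% to 0.229 in An. merus at 0%. With only the libraries of the groups compared, 6546 genes were called at 50% against 0% and 4710 for the difference from An. merus. Alternatives were other pseudocounts, a filter, other scalings, other sets of samples, group weights, robust variances, edgeR 4.0.16 and DESeq2 1.42.0 on the recovered reads (7466 and 7432 genes called at 50% against 0%), and each library left out.

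Named genes were those extreme in fold change, in CPM gained or lost, with no read in 1 group, over the step from 40 to 50% or in the difference from An. merus, at a mean of at least 5 CPM where reads were present in both groups, and with no overlap between groups for fold change, CPM and the step. AGAP006380 and AGAP002798 were added afterwards. The comparison, its tests and lists were chosen with earlier results of these data known. Gene lists by function were not counted, since no identifier matched. Python 3.11.15 and matplotlib 3.10.9 were used for tables and figures.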

Additional observations from a re-analysis of the deposited data

Results flagged for a closer look

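The response at 50% differed between the species in 5992 of 10905 genes (54.9%) and in 9 of the 13 named genes. The test was that of the difference (An. coluzzii minus An. merus, log2 scale, limma adjusted p under 0.05). AGAP004980 and AGAP009635 were named by this same test, and the others by their levels in An. coluzzii. The count among named genes is therefore no separate result. Of the named genes, the response of An. coluzzii was higher in AGAP004980 (5.54), AGAP006380 (4.25), AGAP008448 (3.76) and AGAP007171 (2.94). It was lower in AGAP009635 (-7.97), AGAP004130 (-6.46), AGAP004131 (-6.39), AGAP002798 (-2.27) and AGAP028154 (-0.51). AGAP002798 fell in both species, by 6.18 log2 units in An. coluzzii and by 3.91 in An. merus. AGAP008448 was not called in An. coluzzii (0.39, limma adjusted p = 0.68) and fell in An. merus (-3.37, limma adjusted p = 0.00061). The values of AGAP004130, AGAP004131, AGAP008448 and AGAP009635 rest on 0% pools of An. coluzzii that lay far apart. For AGAP004130 and AGAP004131 the An. merus pools lay far apart too. The An. coluzzii change of AGAP009635 was -5.50 with D and -4.89 without it.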

How the results depend on the processing

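The numbers of genes called stayed within 1.5 times of those reported under each alternative run: 6101 to 7712 at 50% against 0% (6846 to 7112 with 1 library left out), 1743 to 2829 of at least 2-fold (2277 to 2553), 4075 to 5284 for 50% against 40% (3537 to 4419) and 4710 to 6033 for the difference from An. merus (5504 to 6078). Counts of at least 8-fold moved by more than 1.5 times under 4 alternatives. They were 68 risen and 115 fallen with 0.1 CPM added, 16 and 39 with 2 CPM, 87 and 180 with edgeR, and 91 and 175 with DESeq2. With 1 library left out they ran from 37 to 42 risen and from 46 to 95 fallen. With the replicate letter as a block the counts were 7180, 2382, 4317 and 5866 in the order above. Letters A and B occur in both groups, but C and D in only 1 each, so the main fit had no block. Deviations from the group means correlated at -0.02 for A and 0.21 for B, against -0.14 to 0.10 for unlike letters. The value for B was the highest, and whether the letters pair the samples was not settled. Of 314 refits of named genes, 305 kept direction and call, 5 lost the call and 4 turned sign. The 4 were of AGAP008448 at 50% against 0%, which was not called: -0.26 under the replicate block, -0.40 with edgeR, -0.37 with DESeq2 and -0.94 to 1.30 with 1 library left out. The cause was not tested. It also lost its call for 50% against 40% under the block (adjusted p = 0.095). Counts of gene lists by function were not run. Depth limits genes with no read, which could hold up to 3 reads.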
